A study of Homo sapiens with 33 samples.

Results

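The 10 genes described here were the 4 TEAD genes (TEAD1, TEAD2, TEAD3 and TEAD4) and 6 genes known as targets or regulators of YAP (CTGF, CYR61, ANKRD1, AMOTL1, AMOTL2 and AJUBA). They were chosen by name among the 58302 genes of the deposited RNA-seq matrix, and all 10 reached 100 CP20M (counts per 20000000 reads) in at least 1 library, as did 17803 genes in all. The matrix holds 33 libraries of 6 established cell lines: 14 treated with DMSO, 14 with palbociclib, 4 collected after drug washout and 1 untreated. H2052, H2452, H28 and MSTO-211H are palbociclib-sensitive lines of malignant pleural mesothelioma (MPM), with 2 DMSO and palbociclib pairs in H2052 and 3 in each of the others. The resistant lines were MPP89, an MPM line in which RB1 is mutated, with 2 pairs, and MeT-5A, SV40-immortalized mesothelial cells, with 1 pair and 1 untreated library. Cells received 0.1% DMSO or 1 µM palbociclib, an inhibitor of CDK4 and CDK6, for 9 days (replicates 1 and 2) or 10 days (replicate 3, and replicate 2 of H2052). For washout, palbociclib of the 10-day experiment was removed and the cells were kept in drug-free medium for 48 hours, once in each sensitive line. Each line is 1 cell population, so replicates are repeated cultures and not different donors.

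TEAD proteins bind DNA and need a coactivator to activate transcription, and their main coactivators are YAP (YAP1) and TAZ (WWTR1). The Hippo kinases MST1 and MST2 (STK4 and STK3) activate LATS1 and LATS2, which phosphorylate YAP and TAZ and keep them out of the nucleus. NF2, which encodes merlin, acts upstream of LATS and is often lost in mesothelioma. CTGF and CYR61 encode secreted matricellular proteins, ANKRD1 a nuclear ankyrin repeat protein, AMOTL1 and AMOTL2 motin proteins that bind YAP, and AJUBA a LIM protein that restrains LATS kinases. Some of these targets therefore feed back on the pathway. According to the study's genotypes, NF2 is altered in H2052 and MPP89, and LATS2 is deleted in H2052 and in part in MSTO-211H. In these libraries LATS2 was listed at 0 in all 5 libraries of H2052. In DMSO, NF2 was at 356 ± 72.1 CP20M in H2052 (SD, n = 2) and 759 ± 84.9 in MPP89 (SD, n = 2), below every DMSO library of the other lines.

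Promoter sequences of the 2 genes that rose most with palbociclib are shown because they hold several copies of GGAATG, the core of the MCAT element to which TEAD proteins bind. They are the 250 bases before the RefSeq start of the gene in GRCh38.p14, written 5′ to 3′ on the gene's own strand, with each copy of GGAATG in capitals.
CTGF (chr6:131951373-131951622, minus strand): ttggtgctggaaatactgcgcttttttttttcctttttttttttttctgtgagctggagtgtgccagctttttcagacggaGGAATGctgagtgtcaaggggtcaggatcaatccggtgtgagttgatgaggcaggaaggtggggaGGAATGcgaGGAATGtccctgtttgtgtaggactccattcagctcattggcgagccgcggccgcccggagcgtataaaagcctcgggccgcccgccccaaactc
ANKRD1 (chr10:90921088-90921337, minus strand): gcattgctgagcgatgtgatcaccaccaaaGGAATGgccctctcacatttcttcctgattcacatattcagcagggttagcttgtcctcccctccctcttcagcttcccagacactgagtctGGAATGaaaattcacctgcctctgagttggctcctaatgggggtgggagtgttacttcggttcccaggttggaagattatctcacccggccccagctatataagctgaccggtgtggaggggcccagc

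The CTGF window holds 3 copies, which begin 169, 104 and 95 bases before the start, and the ANKRD1 window holds 2, at 220 and 128 bases. GGAATG was searched together with its reverse complement CATTCC, so that both strands were covered. Of 35116 RefSeq windows of this length, 11.89% hold at least 1 match, 0.93% hold 2 or more and 0.08% hold 3 or more. Windows were matched for 7 of the 10 genes (10 windows, since AJUBA, AMOTL2 and TEAD2 have 2 each), and 4 genes had a match. CYR61, TEAD1 and TEAD4 had no window, so copies of GGAATG were not counted for them. The promoters of CTGF and ANKRD1 can thus not be compared with those of CYR61 and TEAD4 here. AMOTL2 and AJUBA have 1 match each, in the window of a start inside the gene, at 69 and 59 bases before that start. They are shown with 12 bases on each side.
AMOTL2: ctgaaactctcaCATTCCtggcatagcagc
AJUBA: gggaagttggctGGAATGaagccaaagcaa

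The windows of AMOTL1, TEAD2 and TEAD3 hold no GGAATG or CATTCC, which says only that these letters are not in these 250 bases. No binding was measured in these libraries, and the sequences are given as a description.

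Before treatment effects are compared, the DMSO libraries give the level of each gene in each line. Lines were compared by limma on log2(CP20M + 10), in which a difference was called above 1.5-fold at a Benjamini-Hochberg FDR under 0.05, with the single DMSO library of MeT-5A assumed to vary like the others. The levels of all 10 genes differed among the 6 lines by the F test, as did 95.6% of all genes tested. Between pairs of lines, 48.8% of all gene comparisons were called. Of the 15 pairs of lines, CTGF differed in 14, CYR61 and TEAD2 in 13, AJUBA and TEAD3 in 11, AMOTL1 in 10, TEAD1 in 9, TEAD4 in 7, and AMOTL2 and ANKRD1 in 3. Of the 10 genes, 6 overlap another gene in GENCODE 44, which is named below where its counts ran parallel, and for 3 of them (AMOTL2, AJUBA and TEAD1) the other gene lies on the same strand.

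CTGF (ENSG00000118523, chromosome 6 from 131948176 to 131951372 of GRCh38, now named CCN2) and AMOTL1 had the widest spans between lines. Its DMSO level was 17803 CP20M in MeT-5A, with 15489 in the untreated library, and 4105 ± 544 in MPP89 (SD, n = 2). Lower means followed in MSTO-211H, with 1926 ± 618 (SD, n = 3), H2452, with 795 ± 54.2 (SD, n = 3), H2052, with 592 ± 60.8 (SD, n = 2), and H28, with 129 ± 42.6 (SD, n = 3). The highest line, a single library, and the lowest differed 128-fold on the CP20M + 10 scale, beside 120-fold for AMOTL1. Every step in this order was called except H2452 to H2052, where the log2 difference was 0.42 (adjusted p = 0.19).

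CYR61 (ENSG00000142871, chromosome 1 from 85580761 to 85584589, now named CCN1), the paralogue of CTGF, had a similar order with a smaller span of 8.12-fold. MeT-5A had 27437 CP20M, MSTO-211H 18161 ± 2363 (SD, n = 3), and MPP89 and H2052 9335 ± 2851 and 9251 ± 1138 (SD, n = 2 each). H2452 had 5601 ± 1796 and H28 3369 ± 766 (SD, n = 3 each). MeT-5A did not differ from MSTO-211H by the test (adjusted p = 0.153), nor MPP89 from H2052 (adjusted p = 0.97), and the other steps were called. Per kb of exon, CYR61 stood above CTGF in the 5 MPM lines, with 1515 against 340 CP20M per kb in H2452 and 4911 against 824 in MSTO-211H. In MeT-5A, CYR61 was at 7419 and CTGF at 7615 CP20M per kb.

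ANKRD1 (ENSG00000148677, chromosome 10 from 90912096 to 90921087) did not follow the order of CTGF and CYR61. It was highest in H2452, at 2997 ± 1331 CP20M (SD, n = 3), and lowest in MSTO-211H, at 529 ± 212 (SD, n = 3). No neighbouring lines in its order differed by the test, and the libraries of each neighbouring pair overlapped. DMSO libraries of 1 line differed widely, from 313 to 1615 CP20M in H2052 and from 556 to 1994 in H28.

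Among the motin genes, AMOTL1 (ENSG00000166025, chromosome 11 from 94706431 to 94876748) was nearly silent in H2452, at 38.3 ± 8.62 CP20M (SD, n = 3). The next line, MPP89, was at 1301 ± 87.7 (SD, n = 2), a log2 difference of 4.78 (adjusted p = 7.68e-10). H2052 was highest, at 5785 ± 718 (SD, n = 2), above MSTO-211H at 2328 ± 335 (SD, n = 3, adjusted p = 5.37e-05). The lines between MSTO-211H and MPP89 did not differ from their neighbours beyond the thresholds. AMOTL2 (ENSG00000114019, chromosome 3 from 134355347 to 134375479) was the most even of the 10 genes, from 5890 ± 471 in H2452 (SD, n = 3) to 11549 ± 1615 in MSTO-211H (SD, n = 3), a 1.96-fold span. None of its neighbouring lines differed by the test.

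AJUBA (ENSG00000129474, chromosome 14 from 22971177 to 22982551) was at 9468 CP20M in MeT-5A. MPP89 had 7952 ± 661 (SD, n = 2) and MSTO-211H 6724 ± 775 (SD, n = 3), and neither step between these lines was called. It was lower in H2052, at 4157 ± 511 (SD, n = 2, adjusted p = 0.000811 against MSTO-211H), and again in H28, at 2692 ± 71.8 (SD, n = 3, adjusted p = 0.0013 against H2052). H2452 had 2238 ± 219 (SD, n = 3).

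Within the TEAD family, TEAD1 (ENSG00000187079, chromosome 11 from 12674421 to 12944737) was high in 4 lines that did not differ between neighbours by the test. These were H2452 at 8244 ± 554 CP20M (SD, n = 3), MeT-5A at 8101, MPP89 at 7983 ± 539 (SD, n = 2) and H2052 at 6371 ± 803 (SD, n = 2). H28 was lower, at 3678 ± 337 (SD, n = 3), and MSTO-211H lowest, at 2214 ± 217 (SD, n = 3, adjusted p = 0.000148 against H28).

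TEAD2 (ENSG00000074219, chromosome 19 from 49340595 to 49362457) set the 2 resistant lines apart, with 1309 CP20M in MeT-5A and 1284 ± 20.5 in MPP89 (SD, n = 2). The next line, H2052, had 331 ± 10.6 (SD, n = 2), a log2 difference of 1.93 from MPP89 (adjusted p = 0.00013). MSTO-211H had 247 ± 81.8, H28 58.3 ± 17.6 and H2452 22.7 ± 2.89 (SD, n = 3 each). TEAD3 (ENSG00000007866, chromosome 6 from 35473597 to 35497079) was highest in MPP89, at 1276 ± 201 (SD, n = 2), followed by MeT-5A at 853, with 1220 in the untreated library. The step from MeT-5A to the next line, H2452, was not called (adjusted p = 0.0908), and TEAD3 was lowest in H28, at 195 ± 31.1 (SD, n = 3).

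TEAD4 (ENSG00000197905, chromosome 12 from 2959330 to 3040676) spanned 2.41-fold, from 1083 CP20M in MeT-5A to 444 ± 17.7 in MPP89 (SD, n = 2). No neighbouring lines in its order differed beyond the thresholds. The resistant lines stood at both ends of this order.

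**Figure D1:**
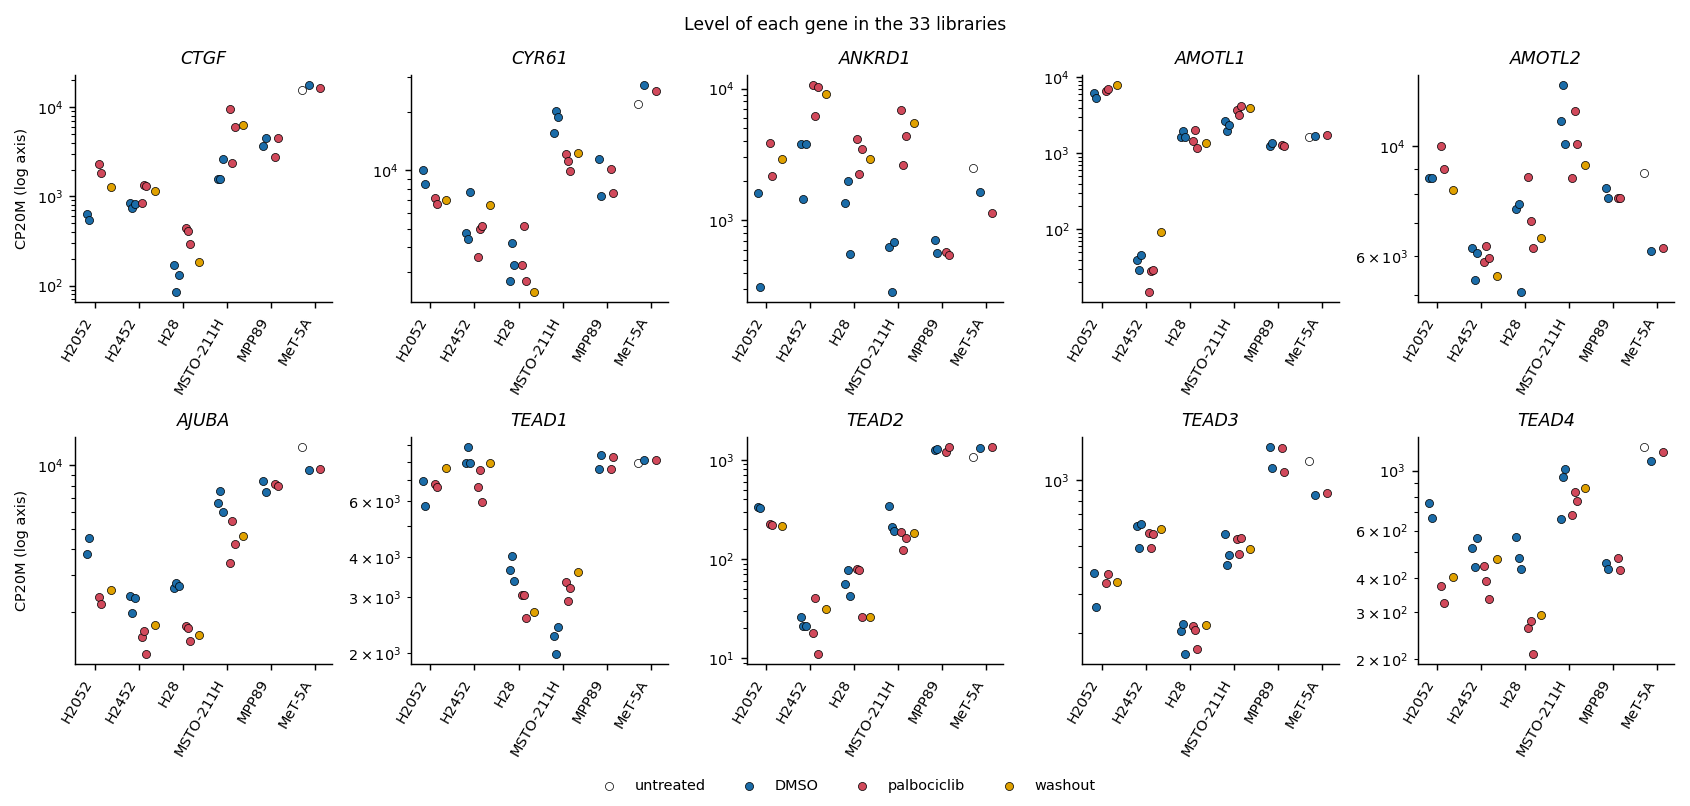
Level of the 10 genes in CP20M on log axes that differ between panels, with 1 point per library, by line and condition. CTGF spans from 85 CP20M in a DMSO library of H28 to 17803 in MeT-5A, AMOTL1 is near the floor in H2452, and TEAD2 is above 1000 CP20M in MPP89 and MeT-5A alone.

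Because read counts grow with transcript length, the TEAD genes were set against each other per kb of annotated exon. In DMSO, TEAD1 gave 64.7% of the summed TEAD level per kb in H2452, 53.4% in H28 and 53.0% in H2052, but 24.9% in MSTO-211H. There TEAD4 gave 46.2%, and its share was 10.9% in MPP89. TEAD2 gave 24.1% in MPP89 and 22.5% in MeT-5A, and from 0.64% (H2452) to 9.97% (MSTO-211H) in the sensitive lines. These shares are descriptions from the mean levels of each line and use exon lengths of GENCODE 44.

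**Figure D2:**
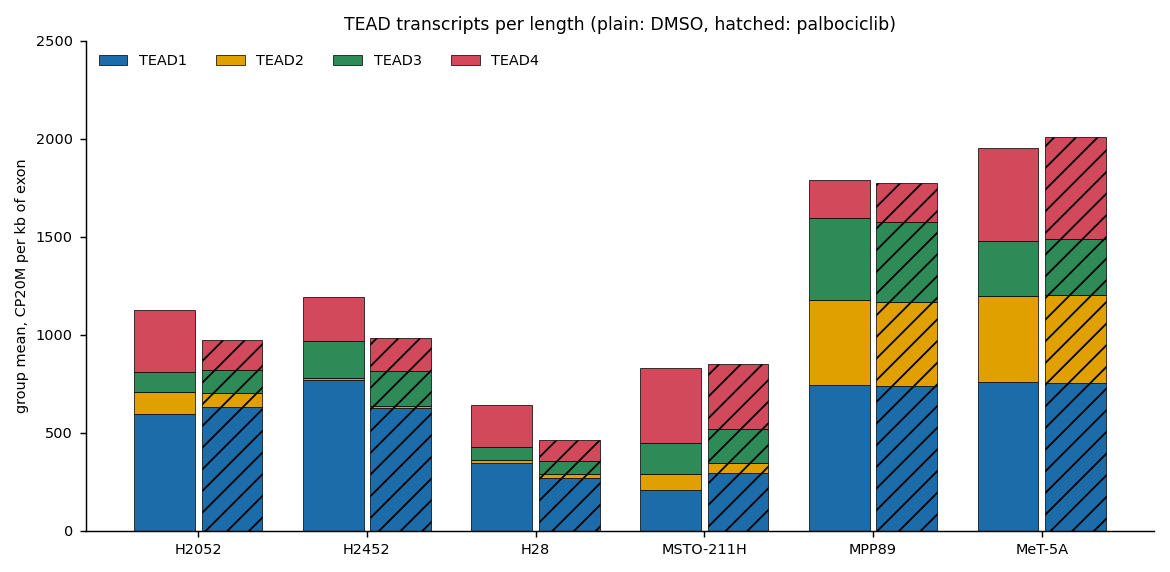
Mean level of the 4 TEAD genes in CP20M per kb of exon, stacked for each line, with DMSO in plain and palbociclib in hatched bars. TEAD1 is the largest part in every bar except those of MSTO-211H, where TEAD4 is, and the TEAD4 part is 313 CP20M per kb in DMSO and 153 with palbociclib in H2052.

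Coactivator transcripts differed in make-up between the same lines. Per kb, WWTR1 stood above YAP1 in H28, at 1113 against 449 CP20M per kb, whereas in H2052 YAP1 was at 860 and WWTR1 at 51.8. In the other 4 lines YAP1 was the higher one.

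Whether palbociclib changes these genes in sensitive lines was tested over the 11 pairs of sensitive lines, with the experiment as a block. CTGF and ANKRD1 rose, and AJUBA and TEAD4 fell. Of all genes, 5.58% were called higher and 9.37% lower. AMOTL1, AMOTL2, TEAD1, TEAD2 and TEAD3 were not called, and CYR61 passed the FDR with a fold change below the threshold. The median log2 change of the 10 genes was -0.0017, beside -0.11 for all genes tested. Changes of this fit relative to the median gene are thus 0.11 higher than those printed. The median of all genes differed in other fits, at -0.24 in H2052, -0.05 in H28 and 0.09 for washout against palbociclib. In bulk RNA, fewer cells that express a gene and less RNA per cell cannot be told apart.

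In the fits of single lines, the share of all genes called in the same direction is given in parentheses. In H2052, CTGF was called higher (4.67% of all genes) and AJUBA and TEAD4 lower (13%). In H2452, ANKRD1 was called higher (6.04%) and AJUBA lower (10.8%). In H28, CTGF was called higher (5.89%) and AJUBA and TEAD4 lower (7.34%), and in MSTO-211H ANKRD1 and AMOTL1 higher (5.9%) and none of the 10 lower (7.94%).

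CTGF had 635 and 549 CP20M in DMSO and 2319 and 1810 with palbociclib in H2052, and 170, 85 and 131 against 448, 408 and 292 in H28. In MSTO-211H it had 1560, 1579 and 2640 in DMSO and 9434, 2398 and 5947 with palbociclib. The conditions did not overlap in H2052 and H28, whereas in MSTO-211H the palbociclib library of replicate 2 was below the DMSO library of replicate 3. Here and below, overlap only describes the values of a gene. The share of all genes without overlap was not counted, so a lack of overlap does not set a gene apart from others. H2452 had 837, 734 and 815 in DMSO and 834, 1326 and 1308 with palbociclib, and replicate 1 of that line showed no rise. Over the 11 pairs the log2 change was 1.27 ± 0.20 (SE, limma, adjusted p = 0.000193), a 2.42-fold rise that was seen in 10 of 11 pairs.

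By line, the log2 change of CTGF was 1.78 ± 0.11 in H2052 (SD, n = 2 pairs, adjusted p = 0.032) and 1.53 ± 0.54 in H28 (SD, n = 3 pairs, adjusted p = 0.0334), and both were called. It was 1.45 ± 1.02 in MSTO-211H (SD, n = 3 pairs, adjusted p = 0.0876) and 0.51 ± 0.45 in H2452 (SD, n = 3 pairs, adjusted p = 0.118). The 4 responses did not differ by the F test (adjusted p = 0.134). Without replicate 1 of MSTO-211H they did (adjusted p = 0.0242).

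ANKRD1 gave the largest change of the 10 genes. In MSTO-211H it had 622, 286 and 679 CP20M in DMSO and 6867, 2619 and 4335 with palbociclib, and in H2452 3761, 1460 and 3770 against 10659, 6182 and 10359. Neither line had overlapping conditions. H2052 had 1615 and 313 in DMSO and 3838 and 2157 with palbociclib, and H28 had 1363, 1994 and 556 against 4150, 2261 and 3501, again without overlap. All 11 pairs rose, from 0.18 in replicate 2 of H28 to 3.44 in replicate 1 of MSTO-211H, with a log2 change of 2.06 ± 0.25 (SE, adjusted p = 3.11e-05), a 4.18-fold rise. It was called in MSTO-211H, at 3.08 ± 0.40 (SD, n = 3 pairs, adjusted p = 0.0349), and also in H2452, at 1.68 ± 0.35 (SD, n = 3 pairs, adjusted p = 0.0138). The changes of 1.99 in H2052 and 1.47 in H28 missed the FDR (adjusted p = 0.0587 and 0.11).

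CYR61 was not called higher in any sensitive line. H2052 had 10056 and 8446 CP20M in DMSO and 7219 and 6702 with palbociclib, and MSTO-211H had 15570, 20198 and 18714 against 12105, 11136 and 9925. Both lines were lower with palbociclib without overlap. H2452 had 4721, 4415 and 7667 in DMSO and 3555, 4997 and 5176 with palbociclib, and H28 had 2676, 4191 and 3241 against 3248, 5149 and 2695, with overlap in both. The log2 change over the sensitive lines was -0.31 ± 0.11 (SE, adjusted p = 0.0364), lower in 8 of 11 pairs. It did not pass the FDR in 16 of 24 alternatives, among them median-of-ratios scaling (-0.12, adjusted p = 0.418), upper-quartile scaling (-0.14, adjusted p = 0.318) and the omission of MSTO-211H (-0.16, adjusted p = 0.258). In MSTO-211H it was -0.71 ± 0.30 (SD, n = 3 pairs, adjusted p = 0.0576). The change of CTGF was above that of CYR61 in 11 of 11 pairs. The 4 pairs of 10 days were all lower in CYR61, with a mean log2 change of -0.52 ± 0.29 (SD, n = 4). The 7 pairs of 9 days had -0.19 ± 0.45 (SD, n = 7), with 4 of 7 lower. The length of treatment was not tested, and it cannot be told apart from the experiment.

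The motin genes were not called over the sensitive lines, with log2 changes of 0.03 ± 0.15 for AMOTL1 (SE, adjusted p = 0.888) and 0.02 ± 0.07 for AMOTL2 (SE, adjusted p = 0.835). The sign of both depended on the setting, with values from -0.21 to 0.23 for AMOTL1 and from -0.02 to 0.22 for AMOTL2. For AMOTL1 this average hid different responses, which differed among the 4 lines by the F test (F = 10.6, adjusted p = 0.00912), as did those of 37.1% of all genes. It had 2626, 1966 and 2391 CP20M in DMSO and 3698, 3225 and 4233 with palbociclib in MSTO-211H, and the conditions were apart. The log2 change there was 0.68 ± 0.17 (SD, n = 3 pairs, adjusted p = 0.0362), and it was called higher. In H2452 the levels were at most 46 CP20M in both conditions, with 93 in the washout library, and in H28 the change was -0.21 ± 0.26 (SD, n = 3 pairs). AMOTL2 overlapped between conditions in H2452, H28 and MSTO-211H, and its changes ranged from -0.38 to 0.29 over the 11 pairs.

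AJUBA was lower with palbociclib in every sensitive pair. H2052 had 3796 and 4518 CP20M in DMSO and 2358 and 2202 with palbociclib, and H2452 had 2383, 1986 and 2345 against 1525, 1640 and 1268. H28 had 2627, 2769 and 2680 against 1726, 1682 and 1460, and MSTO-211H had 6641, 7537 and 5993 against 3432, 5423 and 4223. In each of the 4 lines every palbociclib library was below every DMSO library. The log2 change was -0.69 ± 0.07 (SE, adjusted p = 7.59e-06), a fall in 11 of 11 pairs from -0.27 to -1.03. It was called lower in H2052 (-0.86, adjusted p = 0.0412), H2452 (-0.60, adjusted p = 0.0419) and H28 (-0.73, adjusted p = 0.0266), and missed the FDR in MSTO-211H (-0.64, adjusted p = 0.0502). The responses did not differ among the lines by the F test (adjusted p = 0.661). With median-of-ratios and upper-quartile scaling its change was -0.50 and -0.52, below the 1.5-fold threshold and still past the FDR (adjusted p = 4.12e-05 and 3.97e-05).

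TEAD4 was the only TEAD gene called lower over the sensitive lines. It had 758 and 665 CP20M in DMSO and 374 and 324 with palbociclib in H2052, and 570, 473 and 433 against 262, 278 and 209 in H28. These lines were without overlap. H2452 had 516, 441 and 564 in DMSO and 442, 391 and 335 with palbociclib, and MSTO-211H had 663, 949 and 1011 against 683, 831 and 769, with overlap in both. The log2 change over the sensitive lines was -0.59 ± 0.12 (SE, adjusted p = 0.00105), lower in 10 of 11 pairs. It was called in H2052, at -1.01 ± 0.01 (SD, n = 2 pairs, adjusted p = 0.0376), and in H28, at -0.95 ± 0.18 (SD, n = 3 pairs, adjusted p = 0.0268). It was -0.37 in H2452 and -0.18 in MSTO-211H, and the 4 responses differed by the F test (F = 9.44, adjusted p = 0.0119). The fold change over the sensitive lines was close to the threshold of 1.5. The call was lost with line means as units (-0.63, adjusted p = 0.0535) and without replicate 1 or 2 of H2052, replicate 3 of H2452 or any replicate of H28 (log2 change from -0.54 to -0.58, adjusted p from 0.00268 to 0.00324). It was also lost without all of H2052 or of H28 (-0.50 and -0.46), with a pseudocount of 50 (-0.54), and with median-of-ratios (-0.40, adjusted p = 0.0128) and upper-quartile scaling (-0.42, adjusted p = 0.0114).

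TEAD1 moved in opposite directions between lines, so that its change over the sensitive lines was -0.02 ± 0.11 (SE, adjusted p = 0.879), and from -0.22 to 0.17 under the alternatives. In MSTO-211H, the line with the least TEAD1, it had 2251, 1981 and 2411 CP20M in DMSO and 3337, 2921 and 3207 with palbociclib. H28 had 3651, 4028 and 3355 against 3045, 3039 and 2577, and H2452 had 7924, 8884 and 7925 against 6640, 7507 and 5987. The conditions were apart in these 3 lines, with palbociclib above DMSO in MSTO-211H and below it in the other two. The log2 change was 0.51 ± 0.09 in MSTO-211H (adjusted p = 0.0368), -0.35 ± 0.08 in H28 (adjusted p = 0.0386) and -0.30 ± 0.09 in H2452 (adjusted p = 0.0364, SD, n = 3 pairs each). All 3 passed the FDR with fold changes below the threshold. The responses differed among the 4 lines (F = 27.0, adjusted p = 0.000862).

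TEAD2 changed by -0.29 ± 0.14 (SE, adjusted p = 0.106) over the sensitive lines, in which it was at most 341 CP20M in any library. With palbociclib it was lower without overlap in H2052 (221 to 225 against 323 to 338 CP20M) and MSTO-211H (123 to 189 against 192 to 341). Neither change was called (-0.55 and -0.59, limma, adjusted p = 0.0674 and 0.101). In H2452 and H28, where TEAD2 was at most 40 and 80 CP20M, the conditions overlapped. TEAD3 changed by 0.04 ± 0.07 (SE, adjusted p = 0.62) and overlapped between conditions in all 4 lines.

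**Figure D3:**
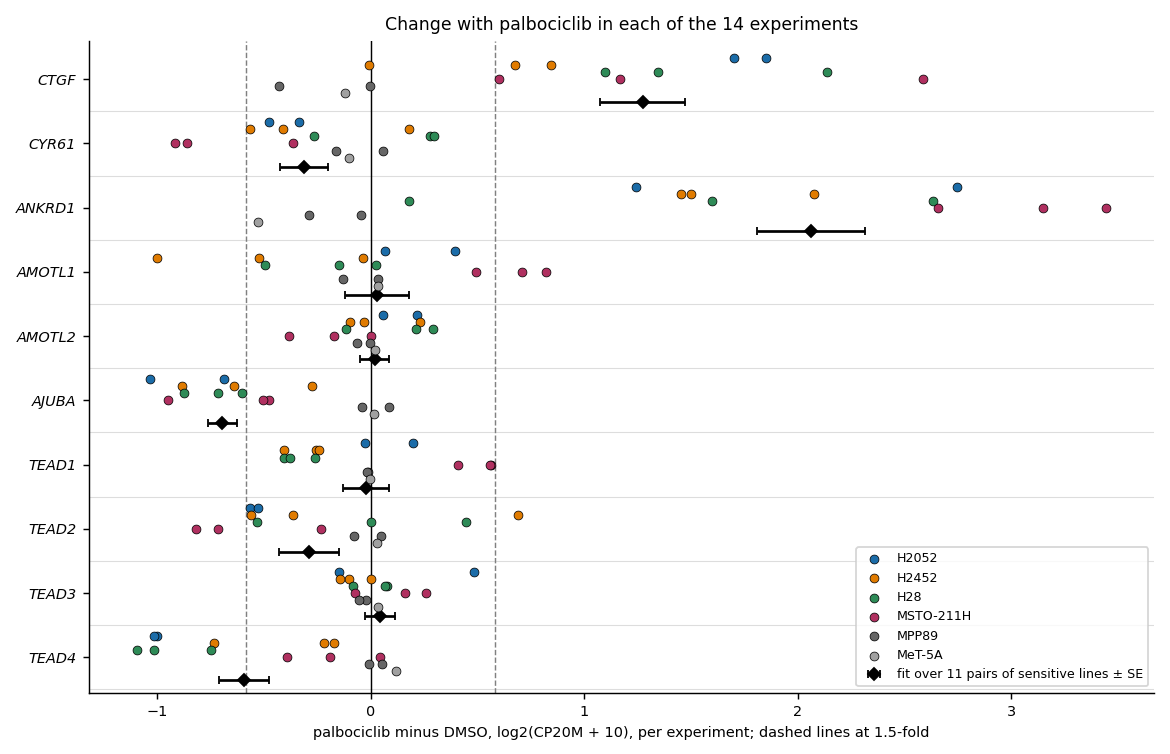
Change of each gene with palbociclib, as the difference in log2(CP20M + 10) between the palbociclib and DMSO library of each of the 14 experiments (points, by line) and as the fit over the 11 pairs of sensitive lines with its SE (diamonds), with dashed lines at 1.5-fold. ANKRD1 lies above 0 and AJUBA below 0 in all 11 sensitive pairs, and TEAD1 splits by line, with MSTO-211H between 0.41 and 0.57.

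In the resistant lines none of the 10 genes was called. The share of all genes called was 0%, with 1258 genes at an unadjusted p under 0.05 over the 3 pairs and 918 in MPP89 alone. CTGF had 3720 and 4490 CP20M in DMSO and 2759 and 4479 with palbociclib in MPP89, and 17803 against 16397 in MeT-5A. AJUBA had 8419 and 7484 against 8197 and 7946 in MPP89, and 9468 against 9572 in MeT-5A. Neither gene separated the conditions. ANKRD1 had 707 and 562 in DMSO and 578 and 545 with palbociclib in MPP89, and in MeT-5A it had 1638 and 1134, with 2497 in the untreated library. Its log2 change over the resistant lines was -0.29 ± 0.09 (SE, limma, adjusted p = 0.689). By unadjusted p, ANKRD1 alone of the 10 genes was under 0.05 in this fit.

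The difference between the responses of sensitive and resistant lines was tested as an interaction over all 14 pairs. It was called for CTGF (log2 difference 1.46 ± 0.40, SE, adjusted p = 0.0331) and ANKRD1 (2.35 ± 0.51, SE, adjusted p = 0.0116), among 1.13% of all genes called higher. AJUBA was called in the other direction (-0.72 ± 0.14, SE, adjusted p = 0.00729), among 5.62% called lower. TEAD4 was not called (-0.65 ± 0.23, SE, adjusted p = 0.0883). With 3 resistant pairs, these calls rested on each pair. The resistant pairs come from 2 lines, and repeated pairs of a line are no independent replicates of a class. Without replicate 2 of MPP89 or without MeT-5A none of the 10 genes was called, and without replicate 1 of MPP89 1 was, AJUBA. With median-of-ratios and upper-quartile scaling the AJUBA difference was -0.50 and -0.51, past the FDR (adjusted p = 0.0259 and 0.0286) but below the fold threshold. Without 1 resistant pair the log2 differences stayed between 1.33 and 1.55 for CTGF and between 2.23 and 2.47 for ANKRD1.

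Washout was compared in the 10-day experiments of the 4 sensitive lines, with the line as a block and 1 library per line and condition. CTGF and ANKRD1 were still above DMSO, and AJUBA was still below it, 48 hours after removal of the drug. No gene of the 10 differed between washout and palbociclib, where 1.4% of all genes were called higher and 0% lower. By unadjusted p, 1 of the 10 was under 0.05 (TEAD4). An exact sign permutation over 4 lines cannot give a p below 0.125, so the calls rest on the limma fit.

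ANKRD1 was at 2930 CP20M after washout in H2052, beside 313 in the DMSO and 2157 in the palbociclib library of the same experiment. In the same order, H2452 had 9019, 3770 and 10359, H28 had 2941, 556 and 3501, and MSTO-211H had 5505, 679 and 4335. Washout was nearer to palbociclib than to DMSO in each line. The log2 change against DMSO was 2.46 ± 0.26 (SE, adjusted p = 0.00368, exact sign permutation p = 0.125), higher in 4 of 4 lines, and that against palbociclib was 0.08 ± 0.26 (SE, adjusted p = 0.947). Of all genes, 2.81% were called higher than DMSO and 2.95% lower.

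CTGF after washout, in DMSO and with palbociclib was at 1269, 549 and 1810 CP20M in H2052, at 1140, 815 and 1308 in H2452, at 186, 131 and 292 in H28, and at 6255, 2640 and 5947 in MSTO-211H. It lay between the other conditions in 3 lines and above both in MSTO-211H. Against DMSO its log2 change was 0.85 ± 0.17 (SE, adjusted p = 0.0163), and against palbociclib -0.31 ± 0.17 (SE, adjusted p = 0.493). The call against DMSO was lost without H2052 (0.73, adjusted p = 0.0793) and without MSTO-211H (0.72, adjusted p = 0.105).

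AJUBA was at 2552, 1740, 1569 and 4609 CP20M after washout in H2052, H2452, H28 and MSTO-211H. This was below the DMSO library (4518, 2345, 2680 and 5993) and above the palbociclib library (2202, 1268, 1460 and 4223) of every line. The log2 change was -0.60 ± 0.10 against DMSO (SE, adjusted p = 0.0102) and 0.22 ± 0.10 against palbociclib (SE, adjusted p = 0.407). The call against DMSO was lost without H2052 (-0.52, adjusted p = 0.072) and without H28 (-0.54, adjusted p = 0.0513), and its fold change fell below the threshold with median-of-ratios (-0.50) and upper-quartile scaling (-0.57).

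TEAD4 had the same order in the 4 lines, at 402, 470, 291 and 860 CP20M after washout, between 665, 564, 433 and 1011 in DMSO and 324, 335, 209 and 769 with palbociclib. Its log2 change against DMSO was -0.44 ± 0.12 (SE, adjusted p = 0.0482), with a fold change below the threshold, and against palbociclib it was 0.35 ± 0.12 (SE, adjusted p = 0.249). TEAD1 was above the palbociclib library in 4 of 4 lines (0.20 ± 0.15, SE, adjusted p = 0.636).

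**Figure D4:**
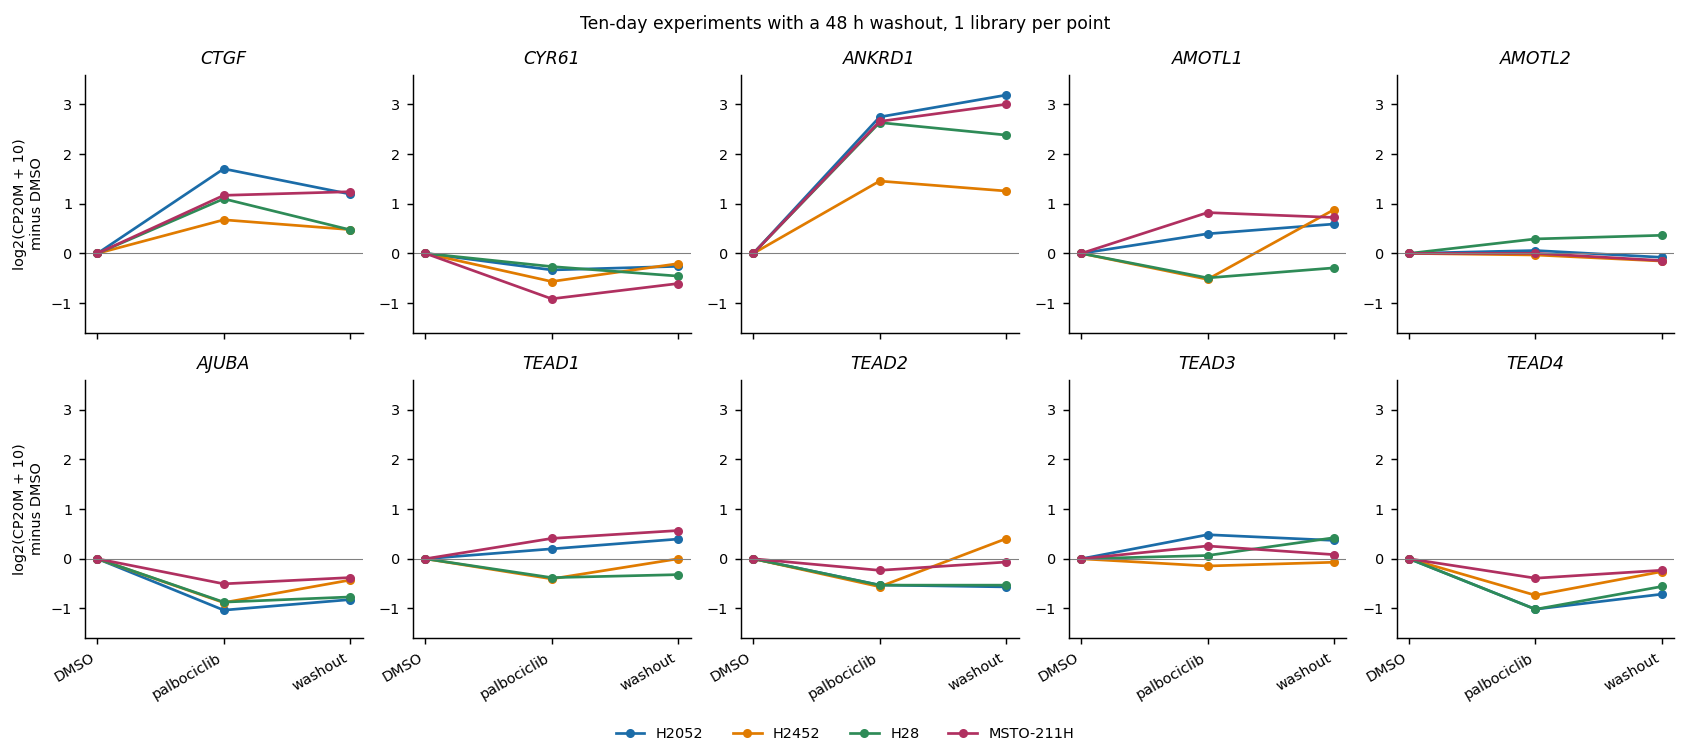
Log2(CP20M + 10) relative to the DMSO library of the same 10-day experiment, for DMSO, palbociclib and 48 hours of washout, with 1 line for each sensitive cell line and 1 library per point. ANKRD1 after washout stays between 1.26 and 3.19 above DMSO, and AJUBA and TEAD4 after washout lie between palbociclib and DMSO in all 4 lines.

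Proliferation genes moved with the treatment and with washout. MKI67, TOP2A, CCNA2 and MCM2 were all called lower with palbociclib over the sensitive lines, with a log2 change of -3.10 ± 0.35 for MKI67 (SE, adjusted p = 1.74e-05). In MSTO-211H alone 2 of these 4 were called lower, and MCM2 was higher in 2 of 3 pairs (0.14 ± 0.75, SD, n = 3 pairs). After washout MKI67 (2.99), TOP2A (2.69) and CCNA2 (2.38) were called above palbociclib. The part of proliferation in the changes of AJUBA and TEAD4 was not tested. One of 9 mesothelial markers, CALB2, was also called higher with palbociclib over the sensitive lines (1.69 ± 0.41, SE, adjusted p = 0.00409). It was higher in 7 of 11 pairs, but not in H28 (-0.09 ± 0.15, SD, n = 3 pairs) or in replicate 1 of MSTO-211H (-0.24). Without a call, MSLN was higher in 10 of 11 pairs and WT1 lower in 9 of 11, and the share of all genes with such counts was not determined. In DMSO the mean of KRT18, a keratin of mesothelial cells, was at least 1939 CP20M in every line, but MSLN was at 4.33 CP20M in H28 and WT1 was listed at 0 in MeT-5A. Of 6 markers of leukocytes, endothelium, epithelium and muscle, 4 reached 100 CP20M in no library. The leukocyte marker CD68 reached 1844 CP20M and the endothelial marker PECAM1 120. The 6 together summed to 179 to 1886 CP20M.

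The other genes of the pathway were counted whole. Of 16 further YAP and TAZ targets, 3 rose over the sensitive lines, where 5.58% of all genes were called higher, and 1 fell, where 9.37% were called lower. Their median log2 change was 0.16, beside -0.11 for all genes. IGFBP3, which binds insulin-like growth factors, rose by 2.31 ± 0.47, NT5E, the ectonucleotidase CD73, by 0.79 ± 0.22, and TGFB2, a TGF-beta ligand, by 0.64 ± 0.20 (SE, adjusted p = 0.00133, 0.00937 and 0.0171). AXL, a receptor tyrosine kinase, fell by 0.98 ± 0.09 (SE, adjusted p = 3.16e-06), in 11 of 11 pairs. The responses of 11 of the 16 differed among the 4 lines by the F test, where 37.1% of all genes did. IGFBP3 was at -0.16 ± 0.51 in H28 and NT5E at -0.31 ± 0.14 in H2452 (SD, n = 3 pairs each), with lower values in 2 of 3 and 3 of 3 pairs, and TGFB2 was called higher in MSTO-211H alone.

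None of 15 Hippo core and input genes and none of the 4 coactivator and competitor genes past the filter (YAP1, WWTR1, VGLL3 and VGLL4) was called over the sensitive lines. Without a call, LATS1 was lower in 11 of 11 pairs, with log2 changes from -0.93 to -0.21, and STK3 in 10 of 11. TAOK2, WWC1 and PTPN14 were each higher in 10 of 11. These genes were picked from the 15 by such counts. How many of all genes moved alike in as many pairs was not counted, and the median change of all genes was -0.11. YAP1 changed by -0.04 ± 0.06 (SE, adjusted p = 0.616) and WWTR1 by 0.28 ± 0.12 (SE, adjusted p = 0.0587). None of the 3 family members AMOT, LIMD1 and WTIP was called either. In single lines, WWTR1 was called higher in H2052 (0.61, adjusted p = 0.0495). In MSTO-211H, 5 Hippo genes were called higher (NF2, LATS2, TAOK2, WWC1 and PTPN14), and LATS1 and AMOT were called lower, where 5.9% of all genes were called higher and 7.94% lower. LATS2 rose there by 1.21 ± 0.14 (SE, adjusted p = 0.0349) and NF2 by 0.96 ± 0.12 (SE, adjusted p = 0.0349). The responses of NF2 (F = 16.2, adjusted p = 0.00318) and LATS2 (F = 20.8, adjusted p = 0.00169) differed among the 4 lines. For LATS2, which is listed at 0 in every library of H2052, the change in that line was fixed at 0 and entered the F test. By the study's genotypes LATS2 is also deleted in part in MSTO-211H.

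For each gene, the genes with the most similar pattern were taken by Pearson's r of log2(CP20M + 10) over the 33 libraries, which share lines and experiments, so that r mostly reflects differences between lines. Nearest neighbours in the ranking were often genes of the same locus. AMOTL1 was closest to AP002383.3 (r = 0.985) and TEAD2 to CD37 (r = 0.968), which overlap them on the opposite strand, and AMOTL2 to RPL39P5 (r = 0.923) and AJUBA to AL132780.3 (r = 0.961), which overlap them on the same strand. The libraries were directional, and the strand setting of the counting is not given in the sources used here, so reads of such pairs cannot be told apart here. CTGF was closest to AL133346.1 (r = 0.987, and 0.931 with line means taken off), whose identifier is absent from GENCODE 44, and then to PTPN21 (r = 0.943, and 0.393 with line means taken off). ANKRD1 was closest to FICD, at r = 0.888 and 0.856 with line means taken off. TEAD4 was closest to CISD2 (0.91 and 0.803), TEAD1 to GNB5 (0.951 and 0.531), CYR61 to CENPV (0.945 and 0.436) and TEAD3 to ENTPD5 (0.934 and 0.247).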

How the data were processed

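Directional cDNA libraries were sequenced in paired-end mode. The authors trimmed reads with Trimmomatic 0.36, mapped them to GRCh38 with STAR 2.5.3, counted them per gene of Ensembl 90 with HTSeq 0.9.1 and scaled each library to 20000000 reads. The deposited values (CP20M) are thus whole numbers after rounding up, treated as a score on a normalized scale and not as counts, so the DESeq2 model of the authors was not used here. The 10 genes and the pathway lists were chosen with earlier results of these data known. All 10 genes are named in every comparison, and pathway genes where they passed a test or where a role needed naming.

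Genes with at least 100 CP20M in 1 of 33 libraries (17803 of 58302) were tested on log2(CP20M + 10) with limma 3.58.1 in R 4.3.3 (eBayes with trend). A fold change on this scale understates the change of low genes. A gene was called at an FDR (Benjamini-Hochberg) under 0.05 together with a change of more than 1.5-fold in either direction. The experiment was the block, as in the paired model of the study. Deviations from the group means correlated in all 13 pairs that could be checked (r between 0.181 and 0.783, computed over genes, which are no independent replicates). In the fits of single lines, of DMSO levels and of responses among the sensitive lines, p-values measure the spread between cultures of the same lines. In the other fits over pairs of several lines, that spread also holds differences in response between lines. In the washout fits, with 1 experiment per line, it is the spread between lines. The spread of low values gave a depth of 12770000 to 19930000 reads for 23 libraries, with 1 read worth at most 1.57 CP20M. The depth of the other 10 was not estimated. Alternatives were other pseudocounts (1 and 50), filters, scalings, limma without trend, no replicate block, 1 fit of all lines, lines as units by their means, and omission of single pairs, libraries or lines. Functions were tested on simulated data. Positions and exon lengths are from GENCODE 44, and promoter windows from RefSeq on GRCh38.p14. Lengths are unions of all annotated exons. Figures were drawn with matplotlib 3.10.9.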

Additional observations from a re-analysis of the deposited data

Results flagged for a closer look

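The response to palbociclib differed among the 4 sensitive lines for TEAD1 (F = 27.0), AMOTL1 (F = 10.6) and TEAD4 (F = 9.44), each past an FDR of 0.05 in limma. These are 3 of the 10 genes, and 37.1% of all genes passed the same test. AMOTL1 was called higher in MSTO-211H, and TEAD4 was called lower in H2052 and H28. TEAD1 had log2 changes of 0.51 in MSTO-211H, -0.30 in H2452 and -0.35 in H28, past the FDR with fold changes below the threshold.

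The response of the sensitive lines differed from that of the resistant lines for ANKRD1 (log2 difference 2.35), CTGF (1.46) and AJUBA (-0.72), by the interaction term of the same model. Of all genes, 1.13% were called higher and 5.62% lower by this term, which rests on 2 resistant lines.

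AMOTL2 in H28 stood apart from the other 3 lines in both washout comparisons, with a log2 change of 0.0727 against palbociclib and 0.364 against DMSO, by Dixon's criterion for the gap to the nearest value. Chance alone sets apart about 1 in 20 such groups, and the 2 comparisons share the washout library of H28. That library was at 6538 CP20M and the DMSO library of its experiment at 5078. The other DMSO libraries of H28, at 7481 and 7643, were above both.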

How the results depend on the processing

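Of 1757 values of single genes under an alternative, 1661 kept their side of the thresholds, 73 lost a call and 23 gained one. The sign changed in 75 values of 21 results, 0 of which had passed the FDR, and no called value changed sign. Over the sensitive lines 4 of the 10 genes were called, 2 under median-of-ratios or upper-quartile scaling, and 3 to 4 without 1 pair. These scalings moved the median change of all genes from -0.11 to 0.06 and 0.04, and the share of calls that were higher from 37.3% to 65.7% and 62.9%. Calls in single lines were less stable. H2052 had 3, but 1 with no filter and 0 in limma without trend. H2452 had 2, but 1 with a pseudocount of 1, no filter, either scaling or no trend, and 0 to 1 without 1 pair. H28 had 3, but 0 without any 1 pair, and MSTO-211H had 2, but 0 without any 1 pair, 1 with no filter, 5 with the filter applied within the fit and 6 with all lines in 1 fit. Leaving out a pair of H2052 or MPP89 leaves 1 pair and no test. The difference between sensitive and resistant lines was called for 3 genes, and for 0 to 4 without 1 pair. Responses among the sensitive lines differed for 3 genes, and for 3 to 5 without 1 pair (5 without replicate 3 of H28 or replicate 1 of MSTO-211H). Against DMSO, washout gave 3 calls, 1 without H2052 and 0 with no replicate block. For washout that setting took out the line itself, by which the levels of 95.6% of all genes differed in DMSO. It can therefore not test these calls. In the other fits of several lines it kept the line, and it changed the count of no other comparison by over 1.5 times. In DMSO, levels among lines differed for 10 genes, 9 to 10 without 1 library, and 10 with a replicate block, where libraries of different lines share only a number (r from -0.049 to 0.347). The causes were not tested. Depth limits values of a few CP20M, such as TEAD2 and AMOTL1 in H2452.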
